A study of Rattus norvegicus with 10 samples.

Results

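The genes examined were 10 receptors through which nerves and extracellular ATP act on the salivary gland: the muscarinic acetylcholine receptors Chrm1, Chrm3, Chrm4 and Chrm5, the receptors for vasoactive intestinal peptide (VIP) Vipr1 and Vipr2, the substance P receptor Tacr1, and the nucleotide receptors P2rx4, P2rx7 and P2ry2. A probe belonged to this set when the RefSeq accession in its scanner record carried one of these symbols, whatever its signal. This gave 10 probes, 1 per gene, out of 30367 probes, and the 10 genes were among the 14711 genes tested. All 10 probes were well above background on all 10 arrays, and 0 were saturated.

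Messenger RNA was measured in whole submandibular gland of 5 spontaneously hypertensive rats (SHR), an inbred rat model of hypertension, and of 5 Wistar-Kyoto rats (WKY), the normotensive inbred strain used as its control. All rats were males aged 14 weeks, the WKY rats were matched to the SHR for weight, and no treatment is labelled. Each rat had 1 one-colour Agilent array, and arrays are called by strain and title number (SHR 3-3). The gland is a mixture of acinar, duct, myoepithelial, vascular, immune and nerve cells, so that fewer cells of a type and less RNA per cell cannot be told apart.

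Salivary secretion is driven by parasympathetic nerves, which release acetylcholine together with VIP and, in the rat, substance P. Acetylcholine at Chrm3 and Chrm1, substance P at Tacr1 and nucleotides at P2ry2 act through Gq and phospholipase C to release stored calcium, which opens the ion channels of fluid secretion. VIP acts through Gs and cyclic AMP, which favours protein release and widens the vessels of the gland, while the P2X receptors are channels that ATP opens directly.

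Over the arrays, the 75th percentile of intensity was 333.2 to 647.9. Precision is limited by there being 5 arrays per strain. Levels below are log2 intensities minus the 75th percentile of the same array, so that 0 marks a probe as bright as that percentile. Levels of different probes are not comparable. Scan times recorded with the scans fall into 3 passes, taken as slides. The first held only SHR (2-3, 3-1, 3-3 and 3-4) and slide 3 only WKY (1-2 and 1-3), while the middle one, slide 2, held 1 SHR array (2-1) beside 3 WKY arrays (1-5, 4-1 and 4-2). Strain and slide are thus largely confounded. SHR 3-3 stood apart: its 75th percentile (333.2) and its share of spots well above background (94.8%) were the lowest, as was its mean correlation with its own strain (0.975). Its summed signal of 8 granular duct markers was 415.6 times its 75th percentile, against 1009 to 1434 times in the other SHR arrays and 863.8 to 980.7 times in WKY arrays. The kallikrein Klk1 (level 7.91 ± 0.25 in SHR and 7.63 ± 0.06 in WKY, SD, n = 5 each), a product of the granular ducts, was well above background on 10 of 10 arrays.

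The question was whether the transcripts of these receptors differ between hypertensive and normotensive rats. Vipr1 did: it was lower in SHR, at 0.669 of the WKY level, with a log2 difference of −0.58 ± 0.08 (SE, n = 5 per strain) and a limma adjusted p of 0.00165 over all genes. The other 9 did not pass. Called genes made up 4.36% of the 14711 tested, with 1.51% higher and 2.85% lower in SHR, so 1 call among 10 receptors is not far from that background. Over probes the count was also 1 of 10, against 3.84% of all probes. Of all genes called, 65.4% were lower in SHR, but that share was 53.5% when arrays were scaled to the median, 50.9% after quantile normalisation, 52% after normexp background correction and 50.6% in the authors' values. At an unadjusted p below 0.05, 2 of the 10 receptors (Vipr1 and Chrm1) passed, while 20.3% of all genes did. The receptors had a higher mean in SHR in 4 cases and a lower mean in 6, and the median over all genes tested was −0.02.

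**Figure D1:**
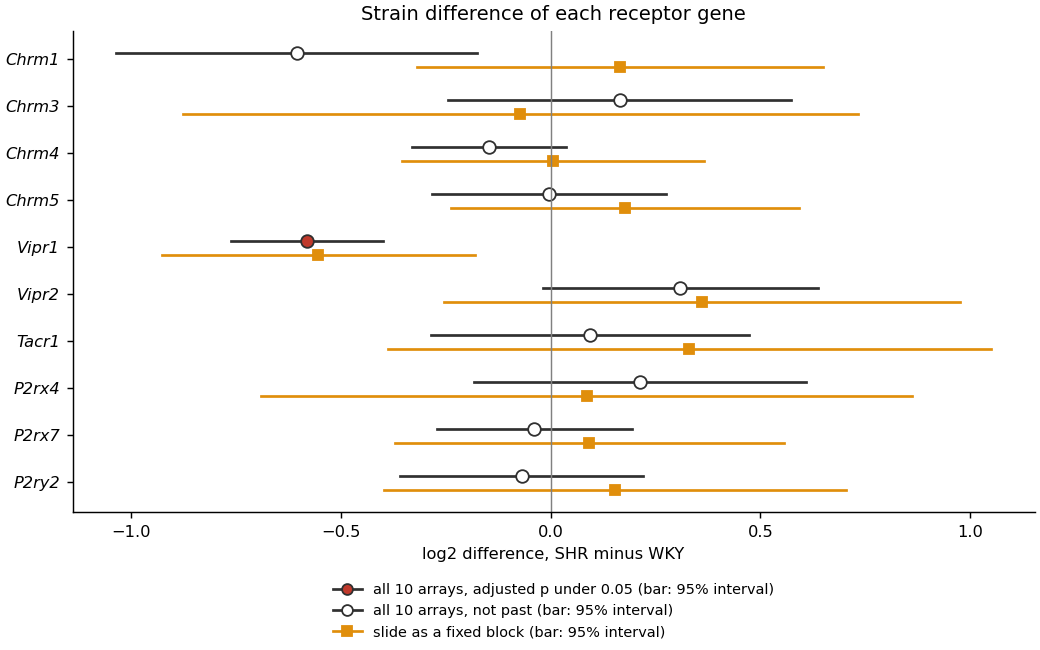
Log2 difference of each receptor gene, SHR minus WKY, from the limma fit on all 10 arrays (circles, filled where the adjusted p is under 0.05) and with the slide as a fixed block (squares); bars are 95% intervals. Vipr1 is the 1 gene past the threshold and lies at −0.58 and −0.55 in the 2 fits, whereas Chrm1 lies at −0.61 and 0.17. The fixed block compares the strains through the 1 SHR array of slide 2.

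Vipr1 encodes VPAC1, a receptor that binds VIP and the related peptide PACAP with similar affinity and raises cyclic AMP. Its level was −0.63, −0.78, −0.54, −0.57 and −0.67 in SHR 2-1, 2-3, 3-1, 3-3 and 3-4, against −0.10, 0.05, −0.22, −0.01 and −0.01 in WKY 1-2, 1-3, 1-5, 4-1 and 4-2. Every SHR array lay below every WKY array. The strains did not overlap, in one direction or the other, in 7.26% of all genes. Within each strain the spread was small, with an SD of 0.10 in SHR and 0.10 in WKY. That within-strain spread stood at percentile 7.23 of the genes tested.

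The 95% interval of the Vipr1 difference ran from −0.76 to −0.40, that is from 0.590 to 0.758 of the WKY level. By its p-value it ranked 120th of the genes tested. In size it was not unusual, since 4.45% of genes lay at least as far from 0. The authors' deposited log2 values gave the same ordering, with 8.26 to 8.52 in SHR and 8.79 to 9.05 in WKY, and Vipr1 passed in a limma fit on them (adjusted p = 0.00147), as did 5.82% of all genes. Vipr1 kept its call without each array in turn, with an adjusted p of up to 0.00748, and its difference was −0.60 without SHR 3-3.

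The slide that held both strains gave a similar value for Vipr1. On it the lone SHR array, SHR 2-1, had a level of −0.63, against −0.22, −0.01 and −0.01 in the 3 WKY arrays, a difference of −0.55 in limma on those 4 arrays, with the lone sample assumed to vary like the others. Its unadjusted limma p was 0.0135 there, where 8.01% of all genes were below 0.05, and its adjusted p was 0.428, where 0.353% passed. With the slide as a fixed block the difference was −0.55 ± 0.17 (SE) with a limma adjusted p of 0.452, so the call was lost, while 0.299% of all genes passed. The unadjusted limma p was 0.00773, and 4.92% of genes were below 0.05 in that fit. With the slide as a random block Vipr1 passed (adjusted p = 6.94e-05), as did Chrm1 and 23.5% of all genes. The correlation estimated within slides was negative there (−0.192), which narrows the error of a contrast made mostly between slides. The 4 SHR arrays of slide 1 averaged −0.64, close to SHR 2-1, and the WKY arrays averaged −0.08 on slide 2 and −0.02 on slide 3. Because slides 1 and 3 held 1 strain each, the fixed-block difference equals that of slide 2 by construction. Both rest on the 1 array SHR 2-1.

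Vipr2 encodes VPAC2, the other VIP receptor, which also signals through Gs and is known from smooth muscle and neurons. Its level was −2.99, −3.25, −3.60, −2.70 and −3.16 in SHR, in the array order used for Vipr1, against −3.61, −3.60, −3.50, −3.25 and −3.29 in WKY. In SHR 4 of 5 arrays lay above the highest WKY array and the strains overlapped through SHR 3-1. The log2 difference was 0.31 ± 0.15 (SE, n = 5 per strain; 95% interval −0.02 to 0.64; limma adjusted p = 0.272). The probe was dim, at 2.61 to 4.52 times the lowest signal that counted as well above background on the array.

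A constant factor per array cannot move the log2 ratio of Vipr1 to Vipr2 within an array, but quantile normalisation and background correction can. That ratio was 2.50 ± 0.34 in SHR and 3.39 ± 0.18 in WKY (SD, n = 5 each). The strains did not overlap in it and differed by −0.89. The ratio was taken after the values of both receptors were seen, so it is given as a description, with no test. Against the 9 other receptors Vipr1 gave 5 ratios without overlap, while its ratio to all other genes tested did not overlap in 56.8% of cases.

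**Figure D2:**
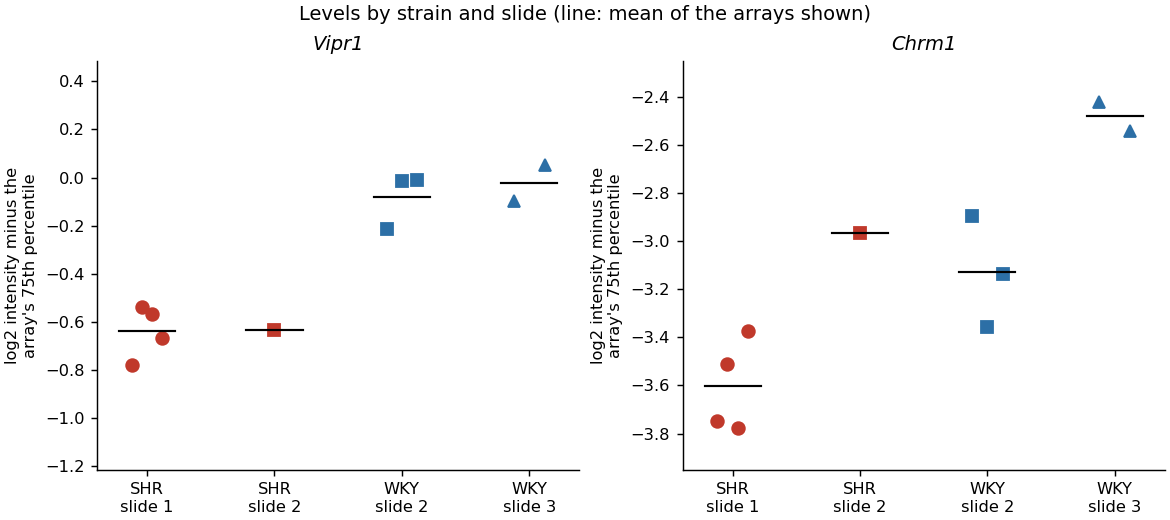
Level of Vipr1 and Chrm1 (log2 intensity minus the 75th percentile of the array) by strain and slide, 1 point per rat, with lines at the means. Vipr1 of SHR 2-1 (−0.63) lies below the 3 WKY arrays of its slide (−0.22 to −0.01), while Chrm1 of SHR 2-1 (−2.96) sits among the 3 WKY arrays of the same slide (−3.36 to −2.90).

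In the order of the RefSeq gene table (GRCr8), the nearest named genes on one side of Vipr1 are Lyzl4 and Cck, and neither passed, with log2 differences of −0.14 and 0.12. On the other side are Sec22c and Ss18l2, which were not among the genes tested. Of the 10 nearest tested genes on each side, 20 in all, 1 was lower and 0 were higher at an adjusted p below 0.05. Over all genes 2.85% were lower and 1.51% higher, so 1 of 20 is not far from that background. None of the 20 was as low as Vipr1. The 1 lower gene was Abhd5, the coactivator of adipose triglyceride lipase, at −0.46 (limma adjusted p = 0.0303), named after its values were seen.

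The genes whose levels followed Vipr1 most closely over the 10 arrays were the galactosyltransferase B3galt2 (Pearson r = 0.984), the proline-rich salivary protein Prpmp5 (0.965) and the calmodulin-like Calml3 (0.964). They were picked as the 3 highest of 14680 genes, and the correlation is a description. Their log2 differences were −0.63, −1.73 and −0.61. Lower levels in SHR follow from how they were picked, since r over the 10 arrays includes the strain difference of Vipr1. After the strain means were removed the correlations were 0.837, 0.553 and 0.746.

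Chrm3, the Gq-coupled receptor that carries most of the acetylcholine response of acinar cells, was bright, at 57.5 to 104.6 times the lowest well-above-background signal. Its level was 1.00, 0.99, 0.70, 1.91 and 1.18 in SHR, against 0.85, 0.90, 1.17, 1.18 and 0.86 in WKY. The high value belonged to SHR 3-3, which lay 0.94 above the mean of the other SHR arrays. The log2 difference was 0.16 ± 0.19 (SE, n = 5 per strain; 95% interval −0.24 to 0.57; limma adjusted p = 0.669), and without SHR 3-3 it was −0.02.

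Chrm1, another Gq-coupled muscarinic receptor, had the largest unadjusted difference among the receptors that did not pass. Its level was −2.96, −3.75, −3.51, −3.78 and −3.37 in SHR, against −2.42, −2.54, −2.90, −3.36 and −3.14 in WKY. The log2 difference was −0.61 ± 0.20 (SE, n = 5 per strain; 95% interval −1.04 to −0.17), with an unadjusted p of 0.00976 and a limma adjusted p of 0.106. In SHR 4 of 5 arrays lay below the lowest WKY array, and the exception was SHR 2-1, the SHR array on slide 2.

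The Chrm1 values differed between slides within each strain. SHR arrays of slide 1 averaged −3.60, SHR 2-1 and the WKY arrays of slide 2 had −2.96 and a mean of −3.13, and WKY arrays of slide 3 averaged −2.48. Within slide 2 the difference was 0.17 (95% interval −0.34 to 0.67) and had the opposite sign. Without SHR 2-1 it was −0.73 with a limma adjusted p of 0.0480, past the threshold, and with the slide as a random block −0.70 (0.00764). The part of the slide in the difference cannot be told apart from the strain beyond the 4 arrays of slide 2. WKY values also differed by first title number. They were −2.42, −2.54 and −2.90 in 1-2, 1-3 and 1-5, against −3.36 and −3.14 in 4-1 and 4-2. Slide and title number were not tested against each other. The probe was dim, at 2.03 to 5.96 times the lowest well-above-background signal.

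Chrm4 couples to Gi and inhibits adenylyl cyclase, and Chrm5 couples to Gq. Chrm4 had −2.33, −2.44, −2.61, −2.53 and −2.35 in SHR, against −2.17, −2.36, −2.39, −2.33 and −2.28 in WKY. In SHR 3 of 5 arrays lay below the lowest WKY array but the groups overlapped, and the difference of −0.15 ± 0.08 (SE; 95% interval −0.33 to 0.04) had a limma adjusted p of 0.349. Chrm5 had −2.25, −2.41, −2.39, −2.03 and −2.17 in SHR, against −1.99, −1.96, −2.53, −2.31 and −2.43 in WKY. The WKY arrays surrounded the SHR arrays, and the 95% interval of the difference was −0.28 to 0.27, or −0.24 to 0.59 with the slide as a fixed block.

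**Figure D3:**
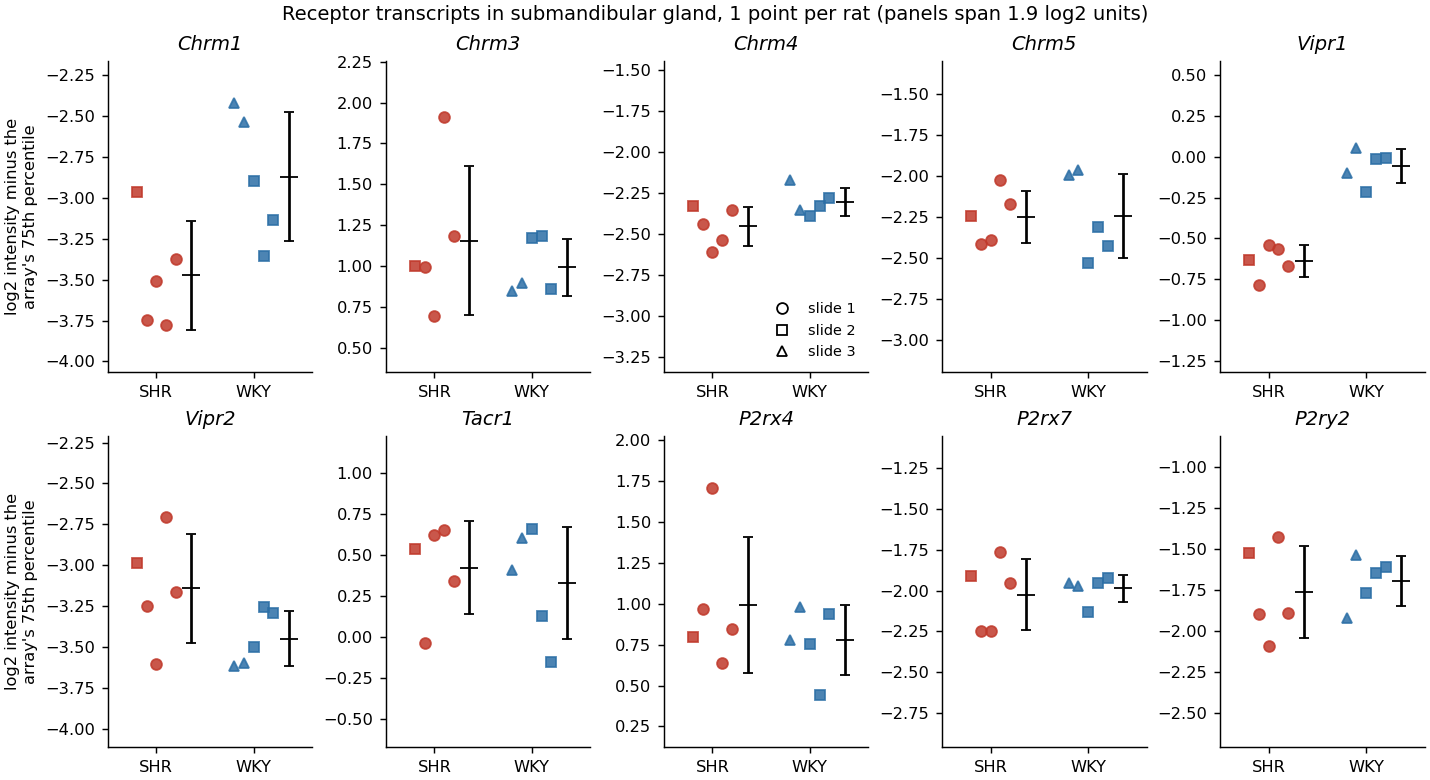
Level of the 10 receptor probes in each rat (log2 intensity minus the 75th percentile of the array; each panel spans 1.9 log2 units), with SHR left of WKY, marker shapes for the slides, and bars at the mean and SD. Vipr1 is the 1 panel without overlap; SHR 3-3 is the high Chrm3 point at 1.91 and SHR 3-1 the high P2rx4 point at 1.71.

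Tacr1 encodes the NK1 receptor, through which substance P causes salivation in the rat. Its probe was printed 10 times on each array, which gives the noise between spots but not that of labelling or hybridisation. The levels were 0.54, −0.04, 0.62, 0.65 and 0.34 in SHR, against 0.41, 0.61, 0.66, 0.13 and −0.15 in WKY. The SD between spots of 1 array was 0.04 to 0.12, whereas the SD between rats was 0.28 in SHR and 0.34 in WKY. Arrays of a strain thus spread more widely than spots of an array. The strain difference was 0.09 ± 0.17 (SE, n = 5 per strain; 95% interval −0.28 to 0.47; limma adjusted p = 0.809), with an interval of −0.39 to 1.05 under the fixed slide block. The low WKY values were those of 4-1 and 4-2, and SHR 2-3 was the low SHR array.

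P2rx7 is the ATP-gated channel that opens a large pore on long exposure to ATP and is known from salivary epithelium and from macrophages, where it activates the inflammasome. Its probe was also printed 10 times. The levels were −1.91, −2.25, −2.25, −1.76 and −1.96 in SHR, against −1.95, −1.97, −2.13, −1.95 and −1.92 in WKY. SHR arrays lay on both sides of the WKY range, with an SD of 0.22 in SHR and 0.08 in WKY, and the SD between spots was 0.08 to 0.14. The difference was −0.04 ± 0.11 (SE, n = 5 per strain; 95% interval −0.27 to 0.19; limma adjusted p = 0.874). With the slide as a fixed block it was 0.09, with an interval of −0.37 to 0.56.

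**Figure D4:**
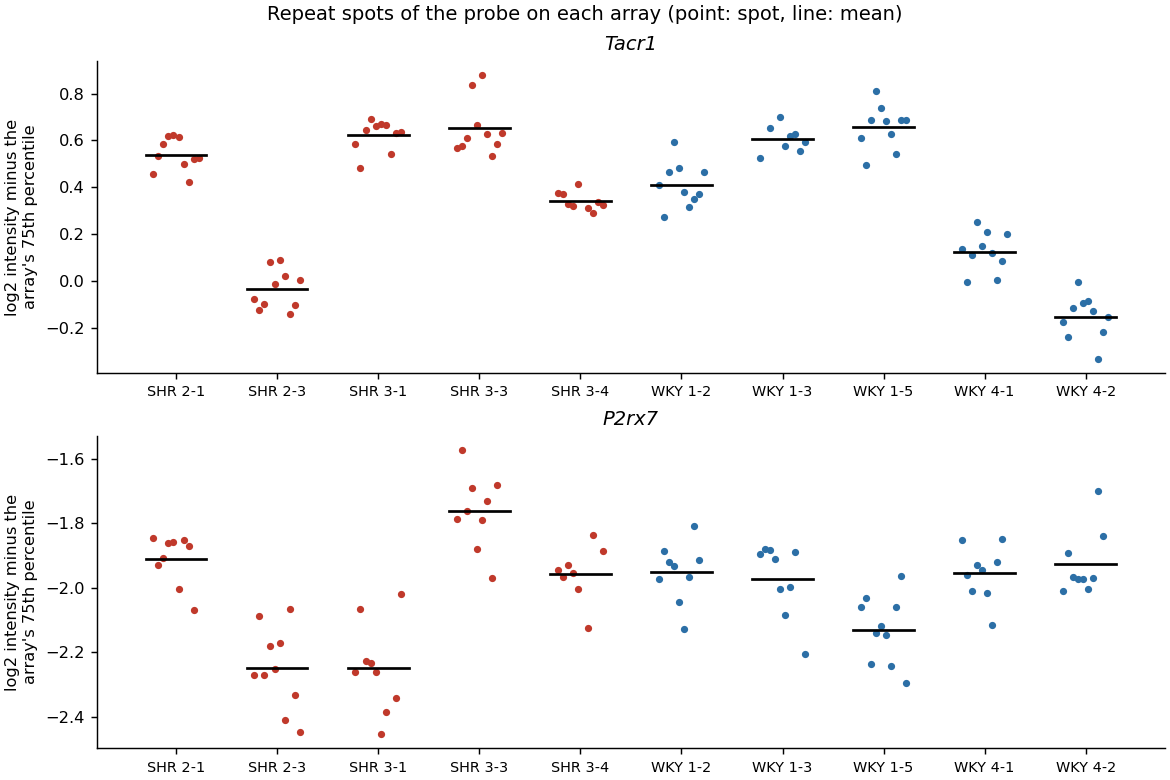
Single spots of the Tacr1 and P2rx7 probes on each array (points, log2 intensity minus the 75th percentile of the array) with the array mean (lines), SHR arrays left of WKY arrays. For Tacr1 the spots of an array lie close together (SD 0.04 to 0.12) and the arrays spread widely within both strains.

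P2rx4, an ATP-gated channel of epithelia and macrophages, lies next to P2rx7 in the genome, with 0 named protein-coding genes between them in the RefSeq table. Its level was 0.80, 0.97, 1.71, 0.64 and 0.84 in SHR, against 0.78, 0.98, 0.75, 0.44 and 0.94 in WKY. SHR 3-1 was the high array and the other SHR arrays fell within the WKY range. The difference was 0.21 ± 0.18 (SE; 95% interval −0.18 to 0.61; limma adjusted p = 0.546), and without SHR 3-1 it was 0.03.

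P2ry2 is the Gq-coupled receptor for ATP and UTP, known in rat submandibular gland for its increase after duct ligation and in culture. Its level was −1.52, −1.90, −2.10, −1.43 and −1.89 in SHR, against −1.92, −1.53, −1.77, −1.64 and −1.61 in WKY. The SHR values spread beyond the WKY range at both ends, and the difference was −0.07 ± 0.13 (SE; 95% interval −0.36 to 0.22; limma adjusted p = 0.816).

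Within the strains, no pair of receptors was correlated across rats after correction. Of 45 pairs, with strain means removed and values permuted within strains, 0 had an adjusted p below 0.05 for Pearson's r or Spearman's rho. The strongest were Vipr2 with P2ry2 (r = 0.832, permutation p = 0.0112, adjusted 0.246; rho = 0.733, permutation p = 0.0278, adjusted 0.386) and Vipr2 with P2rx4 (r = −0.829, permutation p = 0.0110, adjusted 0.246; rho = −0.794, permutation p = 0.0116, adjusted 0.386). Without the 2 arrays farthest from the median of Vipr2, r was 0.571 and −0.502. SHR 3-3 was the highest SHR array for 6 of the 10 receptors and the lowest for 2, while over all genes it was the highest in 41.5% and the lowest in 19.9%.

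Among the genes that act with these receptors, 130 of 138 on 8 lists were tested. Of these, 2 were higher and 6 lower in SHR, 6.15% against 4.36% of all genes. The lists were chosen with earlier results of these data known, so that share is a description. One of the 6, Entpd8, entered the fit only through its WKY arrays. With the slide as a fixed block, 0 of the 130 passed, while 0.299% of all genes did. Of 19 other receptors of the same families 1 fell, P2ry6, the Gq-coupled UDP receptor, at −1.73 ± 0.17 in SHR and −1.02 ± 0.13 in WKY (SD, n = 5 each). Its log2 difference was −0.71 ± 0.10 (SE, limma adjusted p = 0.00172), the strains did not overlap, and the call held without each array. With the slide as a fixed block the difference was −0.42. The median of that list was −0.13.

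On the signal side, none of 12 genes of transmitter synthesis, release and breakdown passed (median 0.01). The closest was Tac3, the neurokinin B precursor, with a difference of −0.36 ± 0.11 (SE, n = 5 per strain; limma adjusted p = 0.0803). Of 15 genes of extracellular nucleotide release and breakdown (median −0.03) 1 fell, the ectonucleotidase Entpd8. Its signal cleared background on 0 of 5 SHR arrays, against 5 of 5 in WKY, so it was tested only because it was detected in WKY. With detection required on all 10 arrays it was not tested and 0 of 14 genes of the list passed. The mean of the 5 SHR arrays was at least 1.33-fold lower, a bound for these arrays that carries no error and was not tested. That fold sets the WKY mean against the SHR mean, with each array at no less than its lowest well-above-background signal. The measured means were −5.21 in SHR and −4.59 in WKY. Their difference of −0.62 had the limma adjusted p of 0.0281, and it rests on SHR values that were not well above background. Leaving out 1 array ended the call in 7 cases (all but SHR 3-1, SHR 3-3 and WKY 1-5; limma adjusted p up to 0.0802), and it was also lost in the authors' values, after normexp and after quantile normalisation.

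Of 26 genes of Gq, phospholipase C and calcium signalling (median 0.02) 1 rose, Gna14, a Gq-family alpha subunit, by 0.52 ± 0.12 (SE, n = 5 per strain; limma adjusted p = 0.0351). Its other probe had a difference of 0.32 (adjusted p = 0.292 over probes), and the call ended with normexp, without SHR 3-4 and without each WKY array (adjusted p up to 0.0943). Of 24 genes of Gs and cyclic AMP signalling (median −0.05), which VIP receptors use, 2 passed, both regulatory subunits of protein kinase A. Prkar2b fell by 0.50 ± 0.09 (adjusted p = 0.00730) and held its call without each array. Prkar1a rose by 0.38 ± 0.09 (adjusted p = 0.0363), which did not pass when SHR 2-1, SHR 2-3 or any WKY array but 4-2 was left out (adjusted p up to 0.0977).

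Of 16 receptor kinases, arrestins and RGS proteins (median −0.045) 1 fell, Rgs2, which speeds the inactivation of Gq, by 0.66 ± 0.12 (SE, n = 5 per strain; limma adjusted p = 0.00635). Of 8 P2X7 and inflammasome partners (median −0.13) 1 fell, the cytokine Il18, which the inflammasome matures, by 0.78 ± 0.13 (adjusted p = 0.00504). Both held their calls without each array, and the Rgs2 difference was −0.36 with the fixed slide block. Of 11 fluid secretion effectors (median 0.23) 1 fell, the bicarbonate cotransporter Slc4a4, by 0.47 ± 0.10 (adjusted p = 0.0176), a call lost without WKY 1-2 (0.0555). Its other probe had −0.35 (adjusted p = 0.0730 over probes).

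**Figure D5:**
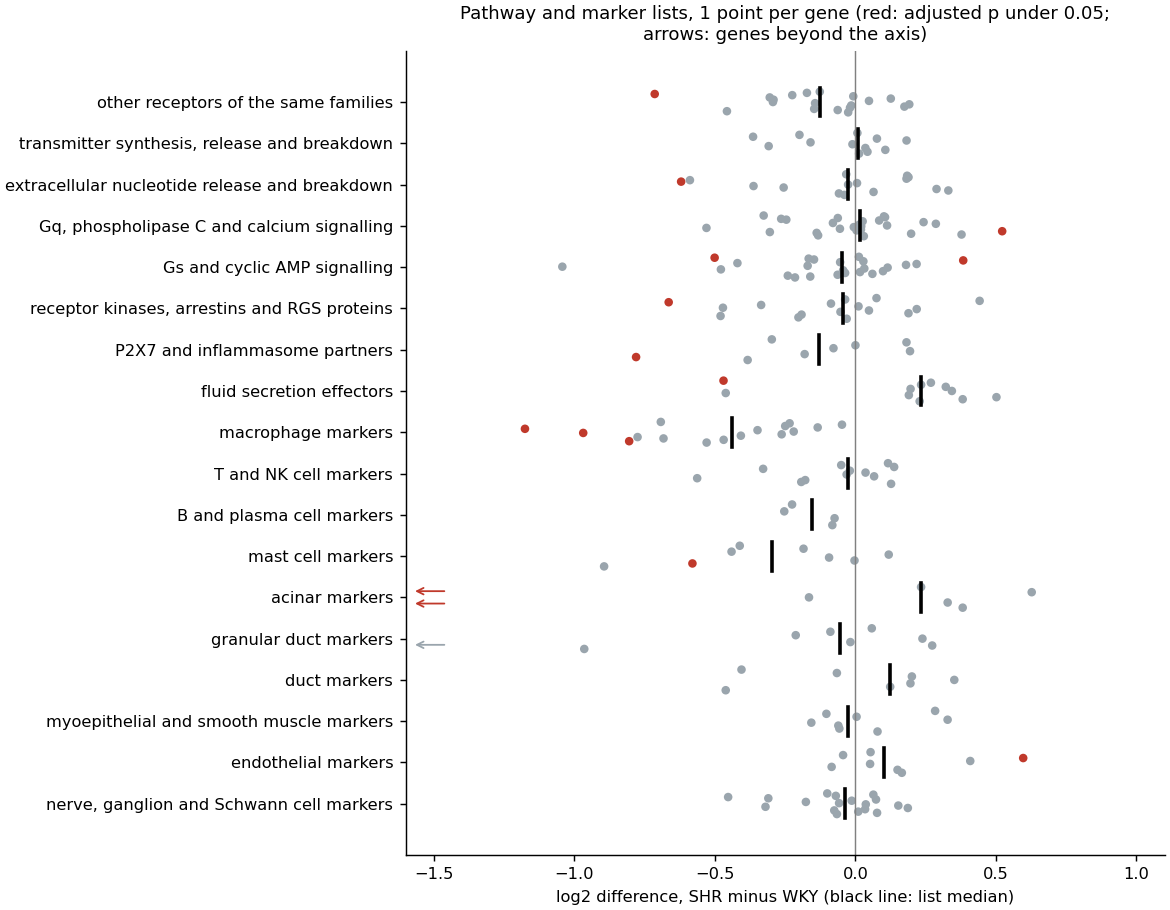
Log2 difference, SHR minus WKY, of every tested gene on 8 pathway and 10 cell marker lists (points, red where the limma adjusted p is under 0.05; black lines are list medians; arrows mark Cyss and Smgc at −4.06 and −4.10 and Klk1c12 at −1.86). The macrophage list has the lowest median, −0.44.

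Markers of the cells that could carry these receptors were read in the same fit. Of 96 tested on 10 lists, 1 was higher and 6 were lower, 7.29% against 4.36% of all genes. These lists too were chosen with earlier results known, so that share is a description. With the slide as a fixed block 2 of these 7 calls held, those of Smgc and Cyss, while 0.299% of all genes passed. The calls of Cd68, Fcer1g, Aif1, Cpa3 and Plvap were lost. Their differences in that fit were −0.77, −0.91, −0.55, −0.47 and 0.79, and the macrophage list had a median of −0.49. That fit compares the strains through SHR 2-1 alone. Macrophage markers, which include cells known to express P2rx4, P2rx7 and P2ry6, had 3 of 16 lower, 0 higher and a median of −0.44. Cd68 fell by 0.97 ± 0.17 (SE, n = 5 per strain; limma adjusted p = 0.00668), Fcer1g by 1.18 ± 0.21 (0.00710; −0.66 at its other probe, 0.00635 over probes) and Aif1 by 0.81 ± 0.18 (0.0293). Their summed signal was 17.1 to 43.6 times the 75th percentile in SHR and 32.9 to 51.4 times in WKY, with the lowest value in SHR 3-3. Without SHR 3-3 the list median was −0.31 and 4 markers were lower, a count not set against the share of all genes called then. Aif1 did not pass when SHR 2-3, SHR 3-1, WKY 1-3, WKY 4-1 or WKY 4-2 was left out (adjusted p up to 0.0851). The part of macrophages in the P2ry6 and Vipr1 differences was not tested.

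T and NK cells, in which Vipr1 is also known, had 0 of 12 markers past the threshold, a median of −0.03 and a summed signal of 4.77 to 6.43 in SHR and 5.65 to 7.03 in WKY. Cd3g came closest (−0.56, adjusted p = 0.0516). None of 4 B and plasma cell markers passed (median −0.15; Cd79b −0.25), and 1 of 8 mast cell markers fell (median −0.30), Cpa3 at −0.58 (adjusted p = 0.0286), which did not pass with normexp (0.0992) or when SHR 2-3, WKY 1-2, WKY 1-3 or WKY 4-1 was left out (up to 0.0841).

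Of the epithelial lists, the acinar list had 2 of 7 genes lower, the secretory products Smgc and Cyss. Their log2 differences were −4.10 ± 0.35 and −4.06 ± 0.34 (SE, n = 5 per strain, limma adjusted p = 2.3e-05 for both). The other 5 genes of that list did not pass, and its median was 0.23. Their log2 differences were 0.63 for Pip, 0.38 for Aqp5, 0.33 for Bhlha15, 0.23 for Slc12a2 and −0.17 for Bpifa2. The summed signal of the acinar list was 339.4 to 614.6 in SHR and 272.2 to 316 in WKY. It was thus higher in every SHR array than in any WKY array, a difference that was not tested. None passed of 8 granular duct (median −0.05; Klk1 0.27), 7 duct (0.12; Scnn1a −0.41) or 8 myoepithelial and smooth muscle markers (−0.03; Myh11 0.33, with 0.06 at its other probe). Without SHR 3-3, however, the granular duct median was 0.23, with Klk1c10 higher (0.80, limma adjusted p = 0.00514) and Klk1c12 lower (−0.84, 0.00383), both kallikrein-family genes. The duct keratins Krt19 (0.62, 0.00393) and Krt7 (0.64, 0.0154) were also higher then. These 4 genes are named after their values were seen. Their number was not set against the share of all genes called without SHR 3-3. Of 8 endothelial markers (median 0.10) Plvap rose by 0.60 ± 0.15 (adjusted p = 0.0443), a call lost without 8 of the 10 arrays (all but SHR 3-1 and WKY 1-5; adjusted p up to 0.109). None of 18 nerve, ganglion and Schwann cell markers passed (median −0.04; S100b −0.31, with 0.21 at its other probe).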

How the data were processed

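Submandibular gland was measured on 10 one-colour arrays, 5 SHR and 5 WKY. Spots were quantified with Agilent Feature Extraction 11.0.1.1, per the file headers, and the deposited processed intensity is background-subtracted and detrended on a linear scale. The authors' deposited log2 values share a median of 7.19 over all arrays; their normalisation is not stated in what was used here, and they served as an alternative.

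Marks of 0 or 1 per spot, deposited by the authors with the scans, gave outliers (left out) and spots well above background. Log2 intensities were reduced by each array's 75th percentile, spots of a probe averaged, and dim probes dropped: 29266 of 30367 passed detection on 5 or more of the 10 arrays. The brightest kept probe stood for a gene. Symbols came from RefSeq accessions in the GRCr8 gene table, with a match for 17980 of the 21135 probes that carry an mRNA accession. The array design carries annotation of another build, so no coordinates are given. The strains were compared in limma 3.58.1 (R 4.3.3; lmFit, eBayes, no covariates), two-sided, with Benjamini-Hochberg adjustment over all 14711 genes and a threshold of 0.05; intervals are at 95%. The fit was tested on simulated data.

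All 10 receptors are named, with up to 3 called members of each list (or the 1 with the smallest p), neighbours of the called receptor and the 3 genes most like it. The receptors and lists were chosen with earlier results of these data known. The ratios within arrays, the pairs of receptors and the comparison with SHR 3-3 were added after the values were seen. Alternatives covered background correction, normalisation, filters, outlier spots, probe summary, weights, variance model, slide, title number and leaving out each array. Figures used matplotlib 3.10.9 under Python 3.11.15.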

Additional observations from a re-analysis of the deposited data

Results flagged for a closer look

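In 64 groups of 5 arrays (the 10 receptors and the 22 other genes named from the lists, in each strain), 3 held an array far from the others by the ratio of its gap to the group's range (Dixon's test at the 95% level); chance flags about 1 group in 20. Of 20 receptor groups 1 was among them. P2rx7 in WKY 1-5 was the lowest WKY value (level −2.13, nearest −1.97, ratio 0.772). Fcer1g in SHR 3-3 was the lowest SHR value (ratio 0.889), and Cd3g in SHR 2-1 the highest SHR value (ratio 0.855).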

How the results depend on the processing

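Vipr1 passed in 22 of 24 alternatives, with log2 differences of −0.62 to −0.49. The exceptions were the slide as a fixed block and slide 2 alone, at −0.5535 in both, where 0 receptor genes and 0 receptor probes passed. There the sign turned for Chrm1 (0.1653), Chrm3 (−0.07225), Chrm4 (0.004776), Chrm5 (0.1772), P2rx7 (0.09254) and P2ry2 (0.1527), and 44 genes passed in all with the block and 52 on slide 2. Both fits compare strains through 1 SHR array. With random blocks 3451 genes passed by slide and 1779 by first title number, each with 2 receptor genes and 2 receptor probes (Chrm1 at −0.7007 and −0.6451); the cause was not tested. No paired analysis was possible because the title numbers of the strains do not match (2 and 3 in SHR, 1 and 4 in WKY). Without 1 array, 343 to 724 genes passed (371 without WKY 1-2, 343 without WKY 1-3 and 416 without WKY 4-1) and 1 to 2 receptor genes and probes, the 2 without SHR 2-1. Receptors near 0 changed sign. Chrm5 was 0.04284 with normexp, 0.04429 with quantile normalisation, 0.02736 with scaling to the median, 0.04497 in the authors' values, 0.02571 with the random slide block and −0.07629 to 0.06583 without 1 array. P2rx7 was 0.003032 with quantile normalisation, 0.003611 in the authors' values and −0.1046 to 0.01734 without 1 array. P2ry2 was 0.01125 with normexp and −0.1543 to 0.01345 without 1 array, Chrm3 −0.02368 to 0.279 and Tacr1 −0.02646 to 0.2094. Of 432 list counts under alternatives, 321 stayed within 1.5 times and 111 moved. Signal limits Chrm1 and Vipr2, the dimmest receptor probes against background.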
